A study of Homo sapiens with 5 samples.

Results

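The SLC25 mitochondrial carriers are the family of small membrane proteins that move metabolites, nucleotides, cofactors and ions across the inner membrane of mitochondria. Their transcripts were examined in HEK293 cells, a widely used human cell line of embryonic kidney origin. Members were all gene symbols made of SLC25A followed by a number, which gave 45 of the 24497 genes in the count table. SLC25A2, SLC25A10 and SLC25A31 were not analysed here. The libraries came from RNA sequencing that retains the 5' ends of polyadenylated transcripts, and each carried the cDNA of 100 cells taken from a lysate of 1000 cells. Batch A has 2 libraries and batch B has 3. Both batches were untreated HEK293 cells grown in the same serum-containing medium and carried through the same written protocol, and the sample titles also carry a different prefix for each batch, which the labels do not explain. The labels do not say whether libraries came from separate cultures, so p-values reflect the spread among libraries alone, and that spread may be technical.

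Most mitochondrial carriers exchange a solute of the matrix for one of the cytosol, and a few carry a solute in a single direction. The adenine nucleotide translocases bring ADP in and let ATP out, and the phosphate carrier supplies the phosphate from which ATP is made. Other members connect the citric acid cycle, amino acid metabolism, iron-sulphur cluster assembly and coenzyme supply on both sides of the membrane. The proteins are encoded in the nucleus, made in the cytosol, and inserted into the inner membrane by the TIM22 complex with the help of small chaperones between the membranes. A few members sit elsewhere, such as SLC25A17 in the peroxisome membrane and SLC25A46 in the outer mitochondrial membrane.

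Depth was 686883 and 803168 gene counts in batch A libraries 2 and 3, and 373687, 575472 and 685181 in batch B libraries 1, 2 and 3, where the numbers are those that end the columns of the table. A gene with 0 counts could therefore reach 3.74 to 8.03 CPM (the counts of a gene scaled to a total of 1000000 gene counts), taking 3 counts as the limit. Added spike-in RNA gave 1785 and 2127 counts in the batch A libraries but 1 to 19 counts in those of batch B. The labels give the same dose of spike-in per cell for both batches, so the counts differ from what the labels state. The part of the spike-in in the results below was not tested. Of 7 marker genes of HEK293 cells in the table, 6 could be tested. EdgeR, DESeq2 and limma-voom called 0 of them between batches, and 2 had an unadjusted p under 0.05 by edgeR. These 2 went in opposite directions, VIM with a log2 fold change of 0.29 (SE 0.11) and NEFM with -0.60 (SE 0.26). The summed level of the 7 genes was 662 to 677 CPM in batch A and 727 to 787 CPM in batch B. VIM alone held 1473 of their 2212 counts, so the sum mostly follows VIM. PAX2 had 1 to 4 counts per library. Of 4 markers of other cell types in the table, ALB and COL1A2 were at 0, DCN had 1 count, and COL1A1 had 3 to 13 counts per library.

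The sequences upstream of 4 members are shown because a 5' library counts transcripts at their start, because 3 of them encode the adenine nucleotide translocases whose proportions are described below, and because SLC25A4 and SLC25A17 were the members that differed between batches. They are the 150 bases before each gene's start in RefSeq on GRCh38.p14, 5' to 3' on the strand of the gene, with capitals on matches to the TATA box (TATAAN), the CCAAT box (CCAAT), the GC box (GGGCGG) and the core of ETS-factor motifs (CCGGAAG) on either strand. SLC25A4 lies at chr4:185143116-185143265 on the plus strand, SLC25A5 at chrX:119468294-119468443 on the plus strand, SLC25A6 at chrX:1392114-1392263 on the minus strand, and SLC25A17 at chr22:40819347-40819496 on the minus strand.
SLC25A4: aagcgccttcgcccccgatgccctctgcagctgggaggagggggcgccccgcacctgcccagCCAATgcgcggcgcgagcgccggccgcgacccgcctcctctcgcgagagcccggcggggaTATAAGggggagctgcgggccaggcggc
SLC25A5: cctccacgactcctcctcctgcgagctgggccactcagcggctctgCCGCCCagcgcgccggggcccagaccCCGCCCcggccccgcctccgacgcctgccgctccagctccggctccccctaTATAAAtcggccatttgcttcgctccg
SLC25A6: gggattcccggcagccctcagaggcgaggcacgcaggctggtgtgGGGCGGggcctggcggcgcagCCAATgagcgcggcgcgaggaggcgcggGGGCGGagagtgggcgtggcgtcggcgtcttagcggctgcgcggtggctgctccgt
SLC25A17: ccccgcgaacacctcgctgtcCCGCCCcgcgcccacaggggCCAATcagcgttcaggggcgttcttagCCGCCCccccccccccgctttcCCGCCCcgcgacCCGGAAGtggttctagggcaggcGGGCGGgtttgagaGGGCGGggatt

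The 4 windows were rich in G and C, from 73.3% in SLC25A5 and SLC25A17 to 76.7% in SLC25A6 and 77.3% in SLC25A4. SLC25A4 and SLC25A5 each held a match to the TATA box, TATAAN, at 28 and 27 bases before the start. SLC25A6 and SLC25A17 had no match to these letters in the window. SLC25A17 held 5 matches to the GC box, GGGCGG, and 1 to the core of ETS-factor motifs, CCGGAAG, at 48 bases before the start. The matches in these windows did not overlap each other. SLC25A4 had no match to GGGCGG in the window, while SLC25A5 and SLC25A6 had 2 each. CCAAT was found at 88 bases before the start of SLC25A4, at 84 in SLC25A6 and at 109 in SLC25A17.

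RefSeq windows were matched for 38 of the 45 members. TATAAN was present in 4 of the 38 (10.5%), against 12.1% of all 35091 RefSeq windows of the same length, which include those of noncoding genes. The 4 were SLC25A4, SLC25A5, SLC25A26 and SLC25A46. CCAAT was present in 16 members (42.1%, against 23.5% of all windows), GGGCGG in 26 (68.4%, against 36.8%), and CCGGAAG in 7 (18.4%, against 6.85%). The motif of the transcription factor NRF1 was also searched for and was present in 2 members (5.26%, against 4.29% of all windows). These are descriptions of letters in a window, and binding was not measured.

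Transcripts of the family took 0.395% to 0.399% of gene counts in the batch A libraries and 0.363% to 0.381% in those of batch B. The batch means were 0.397% ± 0.00275 (SD, n = 2) and 0.369% ± 0.0102 (SD, n = 3), with an exact two-sided permutation p of 0.2, where 0.1 is the smallest p that 2 against 3 libraries allow. All 3 batch B shares lay below both batch A shares. Of the 45 members, 40 had a count in at least 1 library and 38 had a count in every library. The level of a 5' library counts starts of transcripts and was not divided by transcript length.

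**Figure D1:**
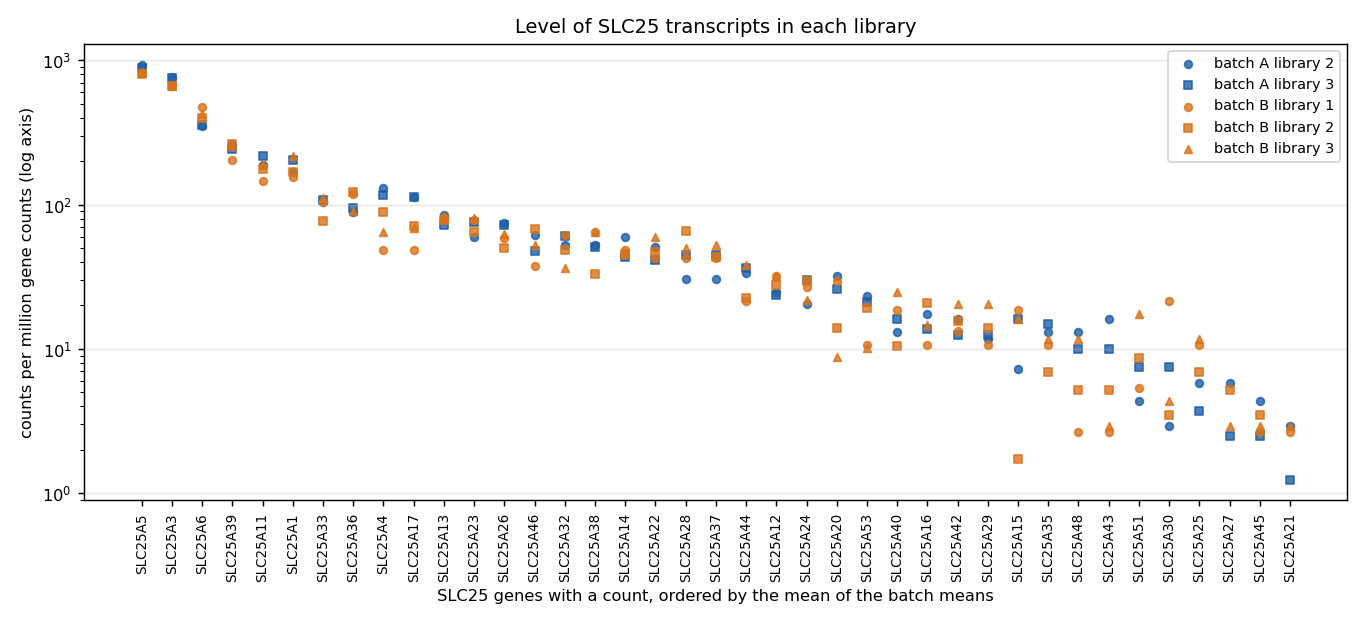
Level of 39 SLC25 genes with a count, in CPM on a log axis, one point per library, ordered from left to right by the mean of the batch means. SLC25A5 and SLC25A3 lead in every library, points spread further apart at lower levels, and the 2 values of 0 (SLC25A27 in batch B library 1 and SLC25A21 in batch B library 2) cannot be drawn.

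The plot of levels by library shows a steep order. SLC25A5, the adenine nucleotide translocase typical of dividing cells, stood first at 930 and 883 CPM in batch A libraries 2 and 3 and at 819, 806 and 832 CPM in batch B libraries 1, 2 and 3. It ranked 148 among all genes by mean level. SLC25A3, the phosphate carrier, followed at 770 and 748 CPM in the batch A libraries against 672, 662 and 663 CPM in the batch B libraries. SLC25A6, another translocase, found in most tissues, came next at 352 and 357 CPM in the batch A libraries against 471, 398 and 423 CPM in the batch B libraries. These 3 genes made up 50.3% to 54.1% of the family's counts in every library. The order SLC25A5, SLC25A3, SLC25A6, SLC25A39, SLC25A11 held in 5 of 5 libraries.

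Below the first 5 the order was mostly not resolved. Of the 39 pairs of neighbours in the order, 5 kept it in all 5 libraries, namely the 4 steps from SLC25A5 to SLC25A11 and the step from SLC25A1 to SLC25A33. SLC25A39, which imports glutathione into mitochondria, had 261 and 244 CPM in the batch A libraries against 203, 262 and 252 CPM in the batch B libraries. SLC25A11, the oxoglutarate and malate carrier, had 189 and 218 CPM in the batch A libraries against 145, 177 and 191 CPM in the batch B libraries. SLC25A1, which exports citrate for lipid synthesis, had 169 and 203 CPM in the batch A libraries against 155, 169 and 217 CPM in the batch B libraries, overlapping SLC25A11 in both batches. The highest mean level was 438 times the lowest among members with a count. On the other scale, CPM per kb of transcript with GENCODE 29 lengths, 7 of the first 10 members were shared with the order by CPM.

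Spread between libraries of the same batch was close to counting noise. The within-batch chi-square per degree of freedom has a mean of 1 when counting noise alone is present, and its median is then below 1. An observed median below 1 can therefore still lie above counting noise. It had a median of 0.902 over the 37 members with at least 20 counts, against 0.969 over 10849 genes. It ranged from 0.0814 to 4.16 and was above 2 in 6 members. These were SLC25A30 (4.16), SLC25A15 (3.35), SLC25A1 (2.93), SLC25A20 (2.44), SLC25A38 (2.28) and SLC25A4 (2.12). The highest value belonged to SLC25A30, a relative of the uncoupling proteins with 2, 6, 8, 2 and 3 counts in the 5 libraries.

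Between batches, 2 members passed the test and both were lower in batch B. These were SLC25A4, the adenine nucleotide translocase typical of heart and skeletal muscle, and SLC25A17, a peroxisomal carrier of coenzyme A, FAD and NAD. The test was the quasi-likelihood test of edgeR, adjusted by Benjamini-Hochberg over all 9215 genes with enough counts, and 30 members were among them. The 2 members are 6.67% of those tested, while 4.20% of all tested genes were called in either direction and 2.05% were called lower in batch B. The share of members is thus near the background. The remaining 28 tested members were not called, with log2 fold changes from -0.87 to 0.51 and adjusted p-values of at least 0.101 by edgeR. DESeq2 gave an adjusted p to 21 members and could not call the rest.

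SLC25A4 had 130 and 116 CPM in batch A libraries 2 and 3 (89 and 93 counts). In batch B libraries 1, 2 and 3 it had 48.2, 88.6 and 64.2 CPM (18, 51 and 44 counts). Every batch B library lay below both batch A libraries, and the shallowest library was the lowest. The means were 123 ± 9.74 CPM (SD, n = 2) and 67.0 ± 20.4 CPM (SD, n = 3). The level was 1.74-fold lower in batch B, a log2 fold change of -0.80 (SE 0.19), with an adjusted p of 0.00136 by edgeR's quasi-likelihood test. That test pooled spread over genes, while the within-batch chi-square per degree of freedom of SLC25A4 itself was 2.12. Between the libraries of nearest depth, batch A library 2 and batch B library 3, the log2 ratio of the counts was -1.02. The call was lost with DESeq2's Wald test (adjusted p 0.0639) and without batch A library 2 (adjusted p 0.0864 by edgeR). It held in 11 of 13 alternatives.

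SLC25A17 had 112 and 113 CPM in batch A (77 and 91 counts) and 48.2, 71.2 and 68.6 CPM in batch B (18, 41 and 47 counts). The batches did not overlap, and the batch A libraries differed by less than the batch B libraries did. The means were 113 ± 0.849 CPM (SD, n = 2) and 62.7 ± 12.6 CPM (SD, n = 3). The level was 1.71-fold lower in batch B, a log2 fold change of -0.78 (SE 0.19), with an adjusted p of 0.00356 by edgeR's quasi-likelihood test. The call was lost with DESeq2's Wald test (adjusted p 0.0858) and, by edgeR, without batch A library 2 (0.0556) or without batch A library 3 (0.0566), and it held in 10 of 13 alternatives. In a bulk library such as these, fewer cells of a kind and less RNA per cell cannot be told apart.

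**Figure D2:**
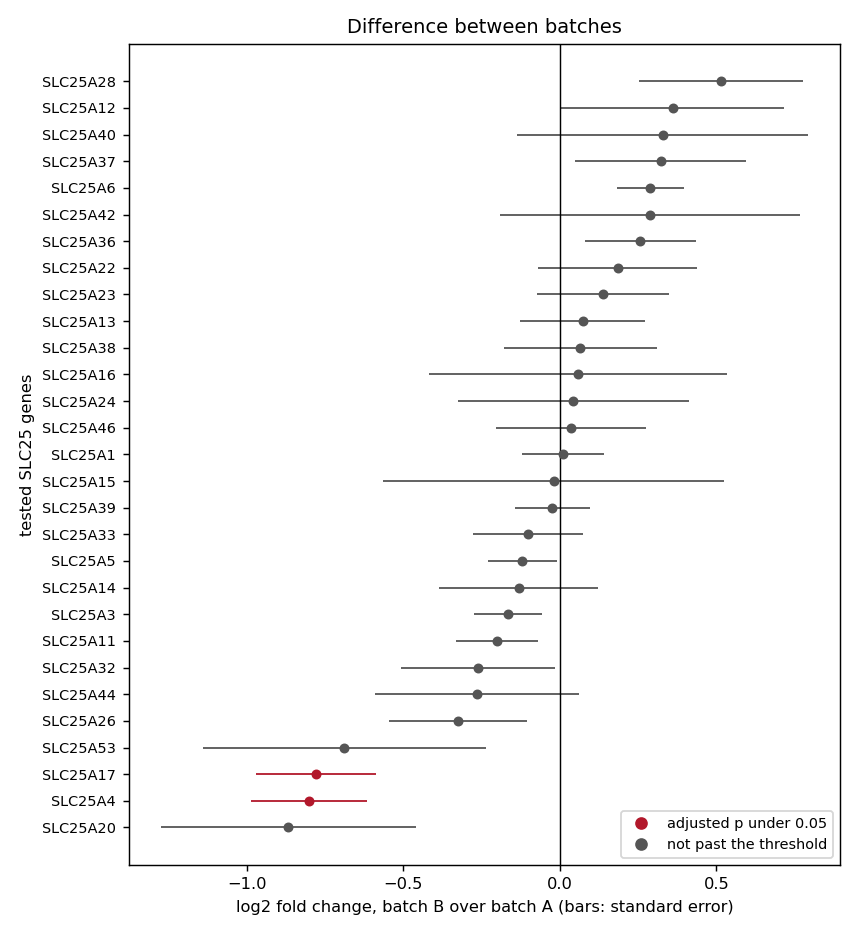
Log2 fold change of batch B over batch A for 29 tested SLC25 genes, with bars of 1 standard error from the edgeR fit. SLC25A4 at -0.80 and SLC25A17 at -0.78 are the 2 members past the threshold, and SLC25A20 lies further out at -0.87 with a wider bar.

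The fold changes lay evenly on either side of 0, with 15 of the 30 tested members positive and 15 negative, as the plot of fold changes shows for 29 of them. The median log2 fold change of the tested members was -0.01, against 0.00 over all tested genes. The median size of the change, without its sign, was 0.23 in both. An unadjusted p under 0.05 was reached by 5 members, and 16.4% of all tested genes reached it. The libraries of the batches did not overlap in 9 of 30 members (30.0%), against 31.3% of all tested genes. Among these 9, batch B was above batch A in 2 and below it in 7. Among the 2882 genes that did not overlap in the whole fit, batch B was above in 1246 and below in 1636. The standard error of the log2 fold change had a median of 0.24 over the members and ranged from 0.11 to 0.54. On simulated data of these depths the test called 29 of 67 genes changed 1.5-fold (43.3%) and 57 of 67 changed 2-fold (85.1%). The changed genes were drawn from those with a mean count of at least 20, and all genes were given the same spread. In the fit limited to a mean count of at least 20, 21 members were tested, so these rates do not cover the rarer members.

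Among the carriers of ATP, phosphate and adenine nucleotides, 8 members were in the table, 6 were tested, 1 fell and 0 rose. This group held 55.0% to 58.6% of the family's counts. SLC25A5 averaged 907 ± 33.6 CPM (batch A, SD, n = 2) against 819 ± 12.8 CPM (batch B, SD, n = 3), and its log2 fold change of -0.12 (SE 0.11) was not called. SLC25A3 averaged 759 ± 15.5 and 665 ± 5.41 CPM and had a log2 fold change of -0.17 (SE 0.11), also not called. SLC25A6 went the other way, from 355 ± 3.55 to 431 ± 37.1 CPM, with a log2 fold change of 0.29 (SE 0.11) and an adjusted p of 0.101 by edgeR. It was positive in 13 of 13 alternatives, but with GC and length trends removed it was 0.06 (SE 0.11, adjusted p 0.883 by edgeR), and it was called in 1 of 13, when only genes with a mean count of at least 20 were tested (adjusted p 0.0468 by edgeR).

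The shares of the 3 translocases among their summed counts were set out per library. SLC25A4 made up 9.18% and 8.54% of translocase counts in the batch A libraries and 3.60%, 6.85% and 4.87% in those of batch B. SLC25A6 made up 24.9% and 26.4% in the batch A libraries against 35.2%, 30.8% and 32.1% in the batch B libraries. SLC25A5 held the largest part throughout, at 65.9% and 65.1% in the batch A libraries against 61.2%, 62.4% and 63.1% in the batch B libraries. For each of the 3 genes the batches did not overlap, with SLC25A4 and SLC25A5 lower and SLC25A6 higher in batch B. The GC content of the transcripts in GENCODE 29 is 64.9% for SLC25A6, 46.6% for SLC25A4 and 49.5% for SLC25A5. With GC and length trends removed the log2 fold change was 0.06 for SLC25A6, -0.79 for SLC25A4 and -0.04 for SLC25A5. Those trends were fitted in each library on these same data and over whole transcripts, and the part of GC content in the shares was not tested. The shares rest on 970 and 1089 translocase counts for batch A and on 500, 744 and 904 for batch B. The share of SLC25A5 differed by -3.28 percentage points, with an exact two-sided permutation p of 0.1, the smallest possible, and of 0.3 adjusted over 6 such shares. The shares of SLC25A4 and SLC25A6 were not tested on their own, and the 3 shares sum to 100%.

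**Figure D3:**
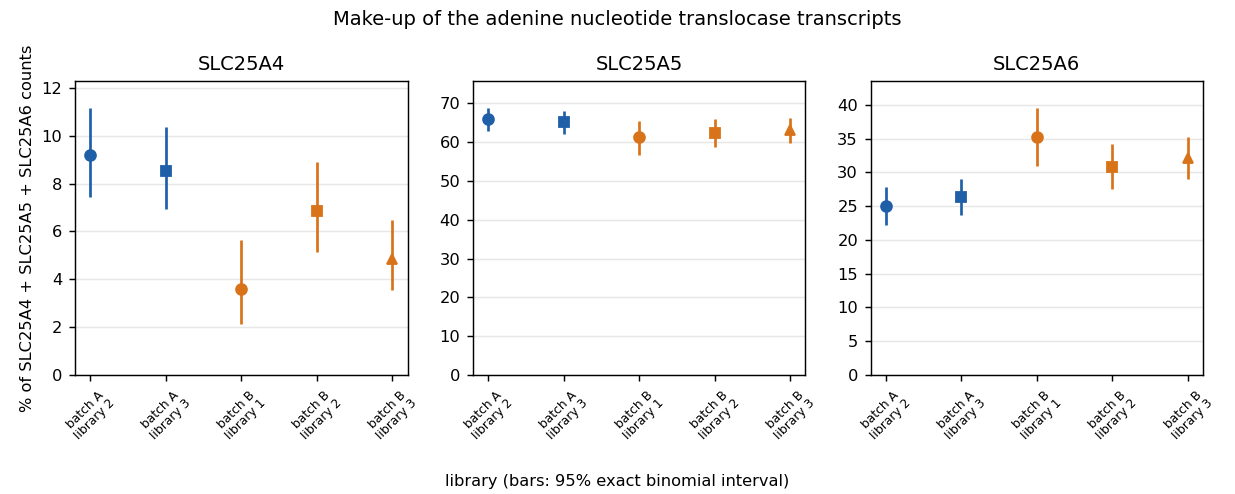
Share of each adenine nucleotide translocase gene among the summed counts of SLC25A4, SLC25A5 and SLC25A6, in percent, per library, with 95% exact (Clopper-Pearson) intervals for counting error. Each panel has its own scale from 0. SLC25A4 lies at 8.54% or more in batch A and at 6.85% or less in batch B, and SLC25A6 lies at 26.4% or less in batch A and at 30.8% or more in batch B.

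The 95% exact (Clopper-Pearson) intervals in the plot of translocase shares cover counting error only. For SLC25A4 they ran from 6.95% to 10.4% in batch A library 3 and from 5.15% to 8.91% in batch B library 2, so those libraries overlapped in their intervals. For batch B library 1 the interval was 2.15% to 5.63%, below both batch A intervals. For SLC25A6 the interval of batch B library 2, 27.5% to 34.2%, overlapped that of batch A library 3, 23.8% to 29.1%.

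The calcium-regulated carriers that exchange ATP-Mg for phosphate were led by SLC25A23, with 41 and 61 counts in the batch A libraries against 29, 37 and 55 in the batch B libraries. It took 63.8% to 70.5% of their counts. SLC25A24 had 14 and 24 counts in the batch A libraries against 10, 17 and 15 in the batch B libraries, and SLC25A25 had 4 and 3 in the batch A libraries against 4, 4 and 8 in the batch B libraries. SLC25A41 had 0 counts. The share of SLC25A24 was 25.5% ± 2.51 (batch A, SD, n = 2) against 23.9% ± 5.07 (batch B, SD, n = 3), with an exact permutation p of 0.8. Neither SLC25A23 (log2 fold change 0.14, SE 0.21) nor SLC25A24 (0.04, SE 0.37) was called.

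Of the carriers of carboxylates and acylcarnitine, 4 were in the table, 3 were tested and 0 were called by edgeR, DESeq2 or limma-voom, with 1 at an unadjusted p under 0.05 by edgeR. They held 9.14% to 11.3% of the family's counts. SLC25A1 averaged 186 ± 24.1 CPM (batch A, SD, n = 2) against 180 ± 32.8 CPM (batch B, SD, n = 3), a log2 fold change of 0.01 (SE 0.13). SLC25A11 averaged 204 ± 20.2 and 171 ± 24 CPM, a log2 fold change of -0.20 (SE 0.13). SLC25A20, which brings acylcarnitines in for fatty acid oxidation, had 22 and 21 counts in the batch A libraries against 11, 8 and 6 in the batch B libraries. Its log2 fold change of -0.87 (SE 0.41) was not called (adjusted p 0.248 by edgeR), and its batches overlapped. Leaving out a single library moved it to as low as -1.35 (batch B library 1 left out) and as high as -0.46 (batch B library 3 left out). SLC25A20 is described because of its fold change, after it was seen. DESeq2 gave SLC25A20 no adjusted p and could not call this gene. SLC25A21, a carrier of oxoadipate, had 6 counts in all.

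Of the amino acid carriers, 8 were in the table and 6 were tested. EdgeR, DESeq2 and limma-voom called 0 of them, and 0 had an unadjusted p under 0.05 by edgeR. SLC25A13, an aspartate and glutamate carrier of the malate-aspartate shuttle, had 58 and 58 counts in the batch A libraries against 30, 45 and 57 in the batch B libraries, close to 80 CPM in both batches (78.3 ± 8.64 CPM, n = 2, and 80.6 ± 2.51 CPM, n = 3, SD). Its relative SLC25A12, the form typical of brain and muscle, had 17 and 19 counts in the batch A libraries against 12, 16 and 22 in the batch B libraries. In CPM these were 24.7 and 23.7 against 32.1, 27.8 and 32.1, so that batch B was higher in every library, while the log2 fold change of 0.36 (SE 0.36) was not called. DESeq2 gave SLC25A12 no adjusted p and could not call this gene. SLC25A13 took 76.3% ± 1.42 of the counts of this pair (batch A, SD, n = 2) against 72.5% ± 1.2 (batch B, SD, n = 3). The batches did not overlap, and the exact permutation p was 0.1, or 0.3 adjusted over 6 shares. After thinning to the smallest library the difference was -2.90 percentage points with an exact permutation p of 0.6.

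The glutamate carriers were represented by SLC25A22 alone, with 35 and 33 counts in the batch A libraries against 16, 27 and 41 in the batch B libraries. SLC25A18, its relative, had 0 counts in all 5 libraries, which allows a share of the pair of up to 8.60% in batch B library 3 and 20.6% in batch B library 1 by the exact 95% interval. SLC25A38, which brings in glycine for haem synthesis, averaged 51.7 ± 0.964 CPM (batch A, SD, n = 2) against 53.8 ± 18.0 CPM (batch B, SD, n = 3). SLC25A44, a carrier of branched-chain amino acids, and SLC25A15, the ornithine carrier of the urea cycle, averaged 31.1 and 12 CPM over the batch means. SLC25A29, a carrier of basic amino acids, had 44 counts in all and was not tested.

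The carriers of nucleotides and cofactors were the most numerous group, with 12 in the table, 10 tested, 1 that fell (SLC25A17) and 0 that rose. They held 18.7% to 20.2% of the family's counts. The pyrimidine nucleotide carriers SLC25A33 and SLC25A36 were at like levels. SLC25A33 had 103 and 108 CPM in the batch A libraries against 104, 76.5 and 111 CPM in the batch B libraries, and SLC25A36 had 88.8 and 94.6 CPM in the batch A libraries against 118, 122 and 90.5 CPM in the batch B libraries. The share of SLC25A36 in this pair was 46.4% ± 0.292 (batch A, SD, n = 2) against 53.1% ± 8.24 (batch B, SD, n = 3), where the values of 53.0%, 61.4% and 44.9% lay on both sides of batch A. The exact permutation p was 0.4.

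SLC25A26, which imports S-adenosylmethionine, did not overlap between batches, with 73.2 ± 1.44 CPM (batch A, SD, n = 2) against 57.3 ± 6.32 CPM (batch B, SD, n = 3), and was not called (log2 fold change -0.32, SE 0.22). SLC25A32, a carrier of folate and FAD, averaged 52.8 CPM over the batch means. SLC25A16 and SLC25A42, linked to coenzyme A, and SLC25A40, a relative of SLC25A39, lay between 15.4 and 16.3 CPM. SLC25A51, the NAD carrier, had 28 counts in all, and SLC25A52, its close relative, had 0.

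The iron importers of mitochondria, called mitoferrins, were both present. SLC25A28 had 21 and 36 counts in the batch A libraries against 16, 38 and 34 in the batch B libraries, and SLC25A37, the form that leads in red cell precursors, had 21 and 36 in the batch A libraries against 16, 25 and 36 in the batch B libraries. Their counts were equal in 3 of the 5 libraries. The share of SLC25A37 was 50.0% in both batch A libraries and 50.0%, 39.7% and 51.4% in batch B, with an exact permutation p of 1. SLC25A28 had a log2 fold change of 0.51 (SE 0.26) with an adjusted p of 0.304 by edgeR, and SLC25A37 had 0.32 (SE 0.27) with 0.611. Neither was called. Leaving out a single library moved SLC25A28 to as low as 0.31 (batch A library 2 left out) and as high as 0.81 (batch A library 3 left out).

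Of the 3 relatives of the uncoupling proteins, SLC25A14 averaged 51.6 ± 11.4 CPM (batch A, SD, n = 2) against 46.2 ± 1.71 CPM (batch B, SD, n = 3). SLC25A27 and SLC25A30 had 11 and 21 counts in all. Of the 8 members whose solutes are less well defined, SLC25A46 was the highest, at 54.2 ± 9.78 and 52.6 ± 15.2 CPM. SLC25A53 had 23.3 and 21.2 CPM in the batch A libraries against 10.7, 19.1 and 10.2 CPM in the batch B libraries. Its batches did not overlap, and its log2 fold change of -0.69 (SE 0.45) was not called (adjusted p 0.477 by edgeR).

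Of the 45 members, 15 were not tested. SLC25A18, SLC25A34, SLC25A41, SLC25A47 and SLC25A52 had 0 counts in 3124391 gene counts, which allows up to 0.960 CPM over the pooled libraries. The other 10 had 6 to 44 counts in all, from SLC25A21 to SLC25A29. SLC25A43, a member of uncertain solute, had 11 and 8 counts in the batch A libraries against 1, 3 and 2 counts in the batch B libraries, and was chosen here after its values were seen. In the fit with no filter on low counts its log2 fold change was -1.75 (SE 0.68), with an unadjusted p of 0.00982 and an adjusted p of 0.257 by edgeR. Its batch B counts lie at or below 3, so that the size of the difference is poorly set. The fit with no filter called 0 of the 10, and SLC25A43 was the 1 member of these with an unadjusted p under 0.05.

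Pseudogene and antisense rows named after members carried few counts. The 6 pseudogene rows of SLC25A5 had 10 counts in all, against 2688 for SLC25A5 itself. The antisense row SLC25A21-AS1 had 14 counts and SLC25A5-AS1 had 6. In GENCODE 29 no gene overlaps SLC25A4, and the genes that overlap SLC25A17 were not analysed here. SLC25A11, SLC25A12, SLC25A26, SLC25A32 and SLC25A40 each overlap a gene on the other strand that was also tested. Partners with more counts than the member were HAT1 (516 against 86 for SLC25A12), DCAF13 (438 against 161 for SLC25A32) and DBF4 (158 against 52 for SLC25A40). Those with fewer were RNF167 (339 against 592 for SLC25A11), METAP1D (77 against 86 for SLC25A12) and LRIG1 (103 against 203 for SLC25A26). Of the members not tested, SLC25A35 (37 counts) overlaps RANGRF (313) and SLC25A30 (21) overlaps TPT1-AS1 (37). Whether strand was used in counting is not given in the sources used here. Whether the counts of these members include reads of the partner was not tested. SLC25A6 has RefSeq entries on both X and Y, in the region the sex chromosomes share, and how the counting treated reads with both positions is not given in the sources used here either.

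The other genes of mitochondrial transport were read from 4 lists and the same fit. Of 33 such genes counted in the data, 28 were tested, 4 fell and 0 rose, where 2.05% of all tested genes were called lower. By limma-voom 3 fell. By DESeq2, which gave an adjusted p to 24 of these genes and could not call the rest, 2 fell. The median log2 fold change was -0.15 over these genes and 0.00 over all tested genes. Of 9 tested genes that bring carriers to the inner membrane, 3 fell by edgeR, 2 by limma-voom and 1 by DESeq2. TIMM10, a chaperone of the intermembrane space that escorts carriers, had 354 and 340 CPM in the batch A libraries against 163, 254 and 206 CPM in the batch B libraries. Its log2 fold change was -0.68 (SE 0.12), with an adjusted p of 1.45e-06 by edgeR, and the call held in 13 of 13 alternatives. TIMM8A, of the same chaperone family, had 246 and 208 CPM in the batch A libraries against 161, 148 and 169 CPM in the batch B libraries, with a log2 fold change of -0.48 (SE 0.13) and an adjusted p of 0.0117 by edgeR. TIMM22, the channel of the complex that inserts carriers, had 154 and 139 CPM in the batch A libraries against 112, 106 and 93.4 CPM in the batch B libraries, with a log2 fold change of -0.49 (SE 0.16) and an adjusted p of 0.0481 by edgeR. The TIMM8A call held in 8 of 13 alternatives and the TIMM22 call in 3 of 13. With batch A library 2 left out the adjusted p was 0.408 for TIMM8A and 0.420 for TIMM22, and with batch B library 2 left out it was 0.115 and 0.109. The TIMM22 call was also lost on removal of batch A library 3 (adjusted p 0.115) or of batch B library 3 (adjusted p 0.279), all by edgeR.

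The other 6 tested genes of carrier import were not called. The most abundant were TIMM13, at 491 ± 6.56 CPM (batch A, SD, n = 2) against 465 ± 13.7 CPM (batch B, SD, n = 3), and TIMM8B, at 491 ± 25.8 and 403 ± 34.9 CPM. Neither was called, with log2 fold changes of -0.06 (SE 0.11) and -0.25 (SE 0.11). Of the 3 channels of the outer membrane, which let small solutes reach the carriers, VDAC3 fell. It had 470 and 468 CPM in the batch A libraries against 326, 339 and 339 CPM in the batch B libraries, a log2 fold change of -0.46 (SE 0.11) with an adjusted p of 0.00113 by edgeR. The VDAC3 call held in 12 of 13 alternatives and was lost without batch A library 2 (adjusted p 0.0560). VDAC1 had a log2 fold change of -0.10 (SE 0.11) and VDAC2 of -0.33 (SE 0.11), and neither was called.

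**Figure D4:**
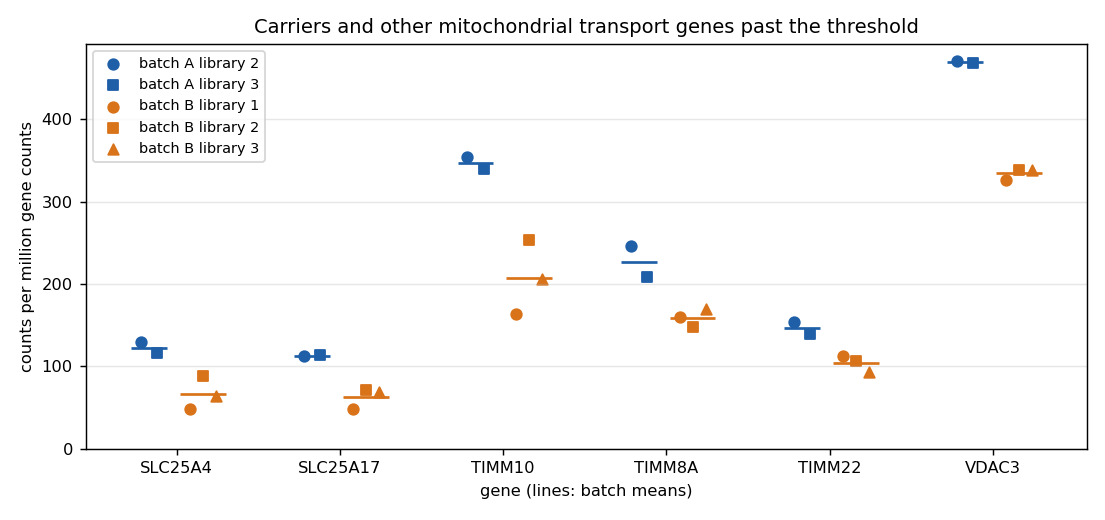
Level in CPM of the 2 SLC25 genes and the 4 other mitochondrial transport genes with an adjusted p under 0.05 by edgeR, one point per library, with lines at the batch means. In each of the 6 genes all 3 batch B libraries lie below both batch A libraries, as for VDAC3 with 326 to 339 against 468 and 470 CPM.

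The plot of called transport genes sets the 2 carriers, near 100 CPM, beside the more abundant TIMM10 and VDAC3. Of the 13 tested transporters of the inner membrane outside the SLC25 family, 0 were called by edgeR, DESeq2 or limma-voom, and 3 had an unadjusted p under 0.05 by edgeR. The pyruvate carrier subunit MPC2 averaged 245 ± 2.4 CPM (batch A, SD, n = 2) against 214 ± 23.7 CPM (batch B, SD, n = 3), and the serine transporter SFXN1 averaged 241 ± 11.4 and 214 ± 8.64 CPM. Their log2 fold changes were both -0.15 (SE 0.12). Members of the superfamily with other symbols were MTCH1, MTCH2, UCP2 and UCP3, which had 11 counts in all and was not tested, and 0 of the other 3 were called by edgeR, DESeq2 or limma-voom, with 1 at an unadjusted p under 0.05 by edgeR. MTCH2, an outer membrane insertase, averaged 296 ± 9.87 and 274 ± 35.7 CPM, and MTCH1 averaged 246 ± 6.27 and 249 ± 26.5 CPM, which puts both at the level of SLC25A39.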

How the data were processed

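The authors deposited raw counts, as whole numbers, in a table of 24549 rows, of which 52 are spike-ins and were left out. The tools named in the submitters' processing notes are cutadapt 1.2.1 and STAR 2.4.0a, and the builds are hg19 and GRCh37. Not given in the sources used here are the counter, the annotation, the use of strand and whether molecular identifiers were collapsed. PCR reads that were not collapsed are not independent molecules, so intervals and limits cover counting error only.

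Columns were assigned to batches by name, and 0 columns were unused. CPM was computed from gene counts. Batches were compared with edgeR 4.0.16 in R 4.3.3 (TMM, filterByExpr, quasi-likelihood F test, batch as the only term), which left 9215 genes with 97.1% of gene counts. An adjusted p under 0.05 was a call. Standard errors were taken as the absolute log2 fold change over the root of F. The estimate of the prior degrees of freedom was infinite, so spread was pooled over genes. Shares have exact permutation tests. The edgeR test was tested on simulated counts over 8867 genes, with 8 false calls among 8667 unchanged genes. Those counts gave all genes the same spread, so the rate of false calls where spread differs between genes was not tested. Alternatives were DESeq2 1.42.0 (size factors and Wald test), library totals, limma-voom (limma 3.58.1), 2 filters, 1 draw of thinning, leaving out libraries and, added after seeing the data, removal of GC and length trends.

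Members and gene lists were chosen with earlier results of these data known. Values per library are given for called members, the 12 highest, the members of 6 sets of paralogs and the 5 tested members with the largest changes among those that did not overlap. Other transport genes are named if called or among the 2 highest of a list, and pseudogene and antisense rows from 10 counts in all. Genes named outside this rule were named after their values were seen. The values of 1 member are not reported here, and the plots leave it out, while counts over the family include it.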

Additional observations from a re-analysis of the deposited data

How the results depend on the processing

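With DESeq2's Wald test 104 of 5288 genes with an adjusted p were called (59 higher, 45 lower in batch B). These held 0 of 21 SLC25 members and 2 of 24 other transport genes with an adjusted p. DESeq2 could not call genes without one. An unadjusted p under 0.05 was reached by 3 members, against 5 by edgeR. After thinning to the smallest library 195 genes were called, and after removal of GC and length trends 231 genes and 2 other transport genes. Scaling to library totals gave 178 higher and 232 lower, and no filter gave 121 and 138, against 198 and 189. Leaving out each library in turn gave 138 to 333 genes, 0 to 2 members and 1 to 4 other transport genes. The lowest of each came without batch A library 2, where 3 members had an unadjusted p under 0.05 by edgeR. Without batch A library 3 it was 152 genes and 1 member, and without batch B library 2 it was 202 genes and 2 other transport genes. Where batch A kept a single library, its spread was taken to equal that of batch B. Over the 5 fits that leave out a library, the members' median log2 fold change ran from -0.091 to -0.014.

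Without each library in turn, the difference in share (batch B minus batch A, percentage points) ran from -0.0341 to -0.0250 for the family among gene counts, from -3.71 to -2.78 for SLC25A5, from -4.88 to -2.87 for SLC25A13, from 2.55 to 10.8 for SLC25A36, from -5.16 to 0.714 for SLC25A37 and from -4.26 to 0.782 for SLC25A24.

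Of 393 values for 31 named genes, 353 kept their direction and call, 21 lost the call, 1 gained it and 18 changed sign. Only the 6 genes called in the main fit, with 13 alternatives each, could lose a call. The sign changed for uncalled genes near 0. SLC25A1 had -0.0126 with library totals, -0.0064 with DESeq2's Wald test, -0.0128 with no filter and -0.21 with GC and length trends removed. With those trends removed SLC25A22 had -0.0031 and MTCH1 -0.0115, and after thinning MTCH2 had 0.0020. Leave-one-out ranges that crossed 0 were -0.15 to 0.14 for SLC25A1, -0.16 to 0.34 for SLC25A24, -0.091 to 0.047 for SLC25A39, -0.060 to 0.21 for SLC25A13, -0.22 to 0.055 for SLC25A33, -0.0048 to 0.13 for MTCH1 and -0.16 to 0.022 for MTCH2. The causes were not tested. No paired analysis was possible because the numbers of the columns are not the replicate numbers of the labels. Depth also limits what is known of the 10 members with 6 to 44 counts and the 5 with 0 counts, which did not pass the filter on low counts.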

Other observations

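Among 666 pairs of the 37 members with at least 20 counts, 3 pairs had equal counts in 3 of 5 libraries. SLC25A28 and SLC25A37, with 145 and 134 counts in all, were the most abundant of these, and the others were SLC25A25 with SLC25A35 and SLC25A43 with SLC25A48. From the shallowest to the deepest library of batch B the log2 ratio of all gene counts was 0.87. The same ratio was 0.90 for SLC25A5, 0.86 for SLC25A3 and 0.72 for SLC25A6, and it was 1.36 for SLC25A1, 1.28 for SLC25A11 and 1.19 for SLC25A39.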
